A study of Mus musculus with 9 samples.

Results

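The insulin-like growth factor (IGF) transcripts described here are 10 genes chosen by name from 55536 genes in the count table. The choice was made with earlier results of these data known. They are the ligand Igf1, the receptors Igf1r and Igf2r, the adaptor Irs2, and the binding protein genes Igfbp2, Igfbp3, Igfbp4, Igfbp5, Igfbp6 and Igfbp7. All 10 passed the filter on low counts, as did 15720 genes in all. RNA was sequenced from primary murine myoblasts, the dividing precursors of muscle fibres, with floxed alleles of Uqcrfs1, which encodes the Rieske iron-sulphur subunit of mitochondrial complex III. There were 3 groups of 3 libraries. The knockout oxybutynin group received adenoviral Cre and then 7.5 µM oxybutynin, which blocks muscarinic acetylcholine receptors. The knockout vehicle group received adenoviral Cre and an equal volume of DMSO, and the floxed vehicle group received adenoviral GFP and DMSO. All cells carried the floxed alleles, grew in Ham's F-10 medium with horse serum, were seeded 72 h after infection, and were kept for 5 days in drug or DMSO from 24 h after seeding. No floxed cells received oxybutynin, and the genotype cannot be told apart from the virus that went with it. Whether the 3 libraries of a group are separate cultures is not stated in the labels, and the p-values therefore reflect the spread between libraries alone, which could be technical.

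IGF1 and IGF2 are secreted growth factors that act through the receptor tyrosine kinase IGF1R, which signals through the IRS adaptors to the PI3K-AKT-mTOR and Ras-MAPK cascades. The IGF binding proteins are secreted, hold IGFs outside the cell and either limit or prolong their action, and several are cleaved by secreted proteases. In skeletal muscle the system is known for promoting both the growth of myoblasts and their differentiation, and Igfbp5 is a well-known product of differentiating myoblasts.

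Library totals ran from 19604971 to 26226949 counts, and the 10 genes together took between 0.122% and 0.180% of them. Values are counts-per-million (CPM) after TMM scaling, with SD over 3 libraries, and log2 fold changes carry their SE. A gene was called when its adjusted p was under 0.05 in edgeR's quasi-likelihood test with Benjamini-Hochberg adjustment over all tested genes. Uqcrfs1 stood at 2.90, 2.71 and 2.07 CPM in knockout oxybutynin and at 2.38, 2.13 and 2.83 CPM in knockout vehicle. In floxed vehicle it stood at 78.6, 76.5 and 83.6 CPM, so every library matched its label of knockout or floxed. Uqcrfs1 was alike in the 2 knockout groups and therefore does not check the drug labels. The summed myoblast markers (Pax7, Myf5, Myod1, Cdh15, Itga7, Met, Vcam1 and Des) gave 3800 to 4102 CPM in knockout oxybutynin, 3153 to 3934 CPM in knockout vehicle and 3448 to 3539 CPM in floxed vehicle. The sum hides opposite changes. In knockout vehicle against floxed vehicle, 3 of the 8 were called higher (Pax7, Vcam1 and Des) and 3 lower (Met, Cdh15 and Myf5). Among all tested genes 29.9% were called higher and 33.4% lower. The largest change was in Met, at 196 CPM in knockout vehicle and 520 CPM in floxed vehicle. Some libraries stood apart. Knockout vehicle replicate 2 held 2.71% mitochondrially encoded counts, against 1.95% to 2.04% in the other knockout vehicle libraries and 3.07% to 3.14% in floxed vehicle. Knockout vehicle replicate 3 correlated more closely with the 3 oxybutynin libraries (Pearson r of log2 CPM between 0.992 and 0.993) than with its own group (0.986 and 0.990).

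The promoters of 5 genes of different roles are shown first: the ligand, Igfbp7 as the binding protein that rose furthest, Igfbp5 as the most abundant binding protein of the knockout groups in CPM per kb, the mannose-6-phosphate receptor and the adaptor. Each is a RefSeq window of 300 bases in GRCm38.p6, from 250 before to 50 after the annotated start, read 5′ to 3′ on the gene's strand. Capitals mark letters searched on both strands: the FOXO motif TGTTTAC, the ATF4-C/EBP composite TGATGNAA, the HIF core ACGTG, the myogenic E-box CAGCTG and the GC box GGGCGG.
Igf1 (chr10:87860861-87861160, plus strand): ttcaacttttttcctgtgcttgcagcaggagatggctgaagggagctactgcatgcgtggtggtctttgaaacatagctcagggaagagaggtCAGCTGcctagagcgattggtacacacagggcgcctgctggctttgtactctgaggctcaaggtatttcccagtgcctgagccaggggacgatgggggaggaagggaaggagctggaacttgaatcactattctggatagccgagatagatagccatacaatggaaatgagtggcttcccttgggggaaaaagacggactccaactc
Igfbp7 (chr5:77407996-77408295, minus strand): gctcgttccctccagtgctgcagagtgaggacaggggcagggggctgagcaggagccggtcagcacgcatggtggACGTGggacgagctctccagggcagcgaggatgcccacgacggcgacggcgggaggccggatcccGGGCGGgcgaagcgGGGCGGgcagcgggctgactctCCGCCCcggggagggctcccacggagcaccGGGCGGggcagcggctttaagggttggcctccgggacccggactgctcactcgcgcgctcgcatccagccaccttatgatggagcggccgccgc
Igfbp5 (chr1:72874816-72875115, minus strand): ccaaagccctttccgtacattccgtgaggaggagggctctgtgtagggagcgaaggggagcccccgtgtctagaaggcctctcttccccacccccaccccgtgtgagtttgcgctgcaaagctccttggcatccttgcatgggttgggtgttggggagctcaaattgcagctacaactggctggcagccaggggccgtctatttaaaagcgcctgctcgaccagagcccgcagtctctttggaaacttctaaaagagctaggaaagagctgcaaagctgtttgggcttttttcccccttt
Igf2r (chr17:12769657-12769956, minus strand): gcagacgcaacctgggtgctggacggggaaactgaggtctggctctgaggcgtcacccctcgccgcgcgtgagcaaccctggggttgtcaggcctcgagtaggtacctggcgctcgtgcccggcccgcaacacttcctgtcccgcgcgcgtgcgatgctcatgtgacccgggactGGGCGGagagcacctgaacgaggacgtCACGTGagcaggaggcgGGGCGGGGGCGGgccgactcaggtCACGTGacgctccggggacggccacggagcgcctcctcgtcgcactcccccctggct
Irs2 (chr8:11008880-11009179, minus strand): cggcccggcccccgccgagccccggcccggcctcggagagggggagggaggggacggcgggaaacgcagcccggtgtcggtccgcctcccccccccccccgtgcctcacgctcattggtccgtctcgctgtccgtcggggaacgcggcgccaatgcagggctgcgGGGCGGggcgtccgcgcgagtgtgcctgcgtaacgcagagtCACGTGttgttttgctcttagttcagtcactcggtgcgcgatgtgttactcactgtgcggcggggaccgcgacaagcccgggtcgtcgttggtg

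RefSeq windows were found for all 10 genes, 11 in number because Igfbp2 has 2. The GC box was in 35.7% of the 32851 windows of all genes, ACGTG in 19.6%, CAGCTG in 16.3%, TGATGNAA in 3.97% and TGTTTAC in 3.65%. In the Igfbp7 window the ACGTG core begins 175 bases before the start site, and GGGCGG is present 4 times. The Igf2r window holds the palindrome CACGTG, which contains the ACGTG core on each strand, at positions -48 and -7, together with 3 GC boxes. The Irs2 window holds CACGTG at -44 and 1 GC box. The first Igfbp2 window, at chr1:72824230-72824529 on the plus strand, also holds CACGTG, at -142, with 3 GC boxes. CACGTG was looked up after these matches were seen, and was present in 7.15% of all windows and in 3 of the 11 windows. The Igf1 window has a single CAGCTG at -157, and the Igf1r window has 2 GC boxes. None of the 5 motifs was found in the windows of Igfbp3, Igfbp4, Igfbp5 and Igfbp6 or in the second Igfbp2 window, and the FOXO and ATF4-C/EBP letters were in none of the 11. The windows also differed in composition, from 76% GC and 48 CpGs for Igf1r to 49.7% GC and 8 CpGs for Igfbp6, against a median of 52.7% GC over all windows. These matches describe the letters of the windows, and binding was not measured.

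The first comparison set knockout vehicle, with adenoviral Cre and little Uqcrfs1 RNA, against floxed vehicle with adenoviral GFP. The 2 largest changes lay at opposite ends of the system, with Igfbp7 raised 5.21-fold and Igf1 lowered 3.74-fold. Igfbp2, Igfbp5, Irs2, Igf2r and Igfbp4 also rose and Igfbp3 fell slightly, while Igf1r and Igfbp6 were not called. Thus 6 of 10 rose and 2 fell, where 29.9% of all 15720 tested genes were called higher and 33.4% lower. The 2 groups did not overlap for 9 of the 10, against 66.7% of all tested genes. The median log2 fold change was 0.53 over the 10 genes and -0.01 over all tested genes. Because the 10 genes were chosen with earlier results known, these contrasts with all genes are a description and not a test. In bulk RNA, fewer cells of a type and less RNA per cell cannot be told apart.

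**Figure D1:**
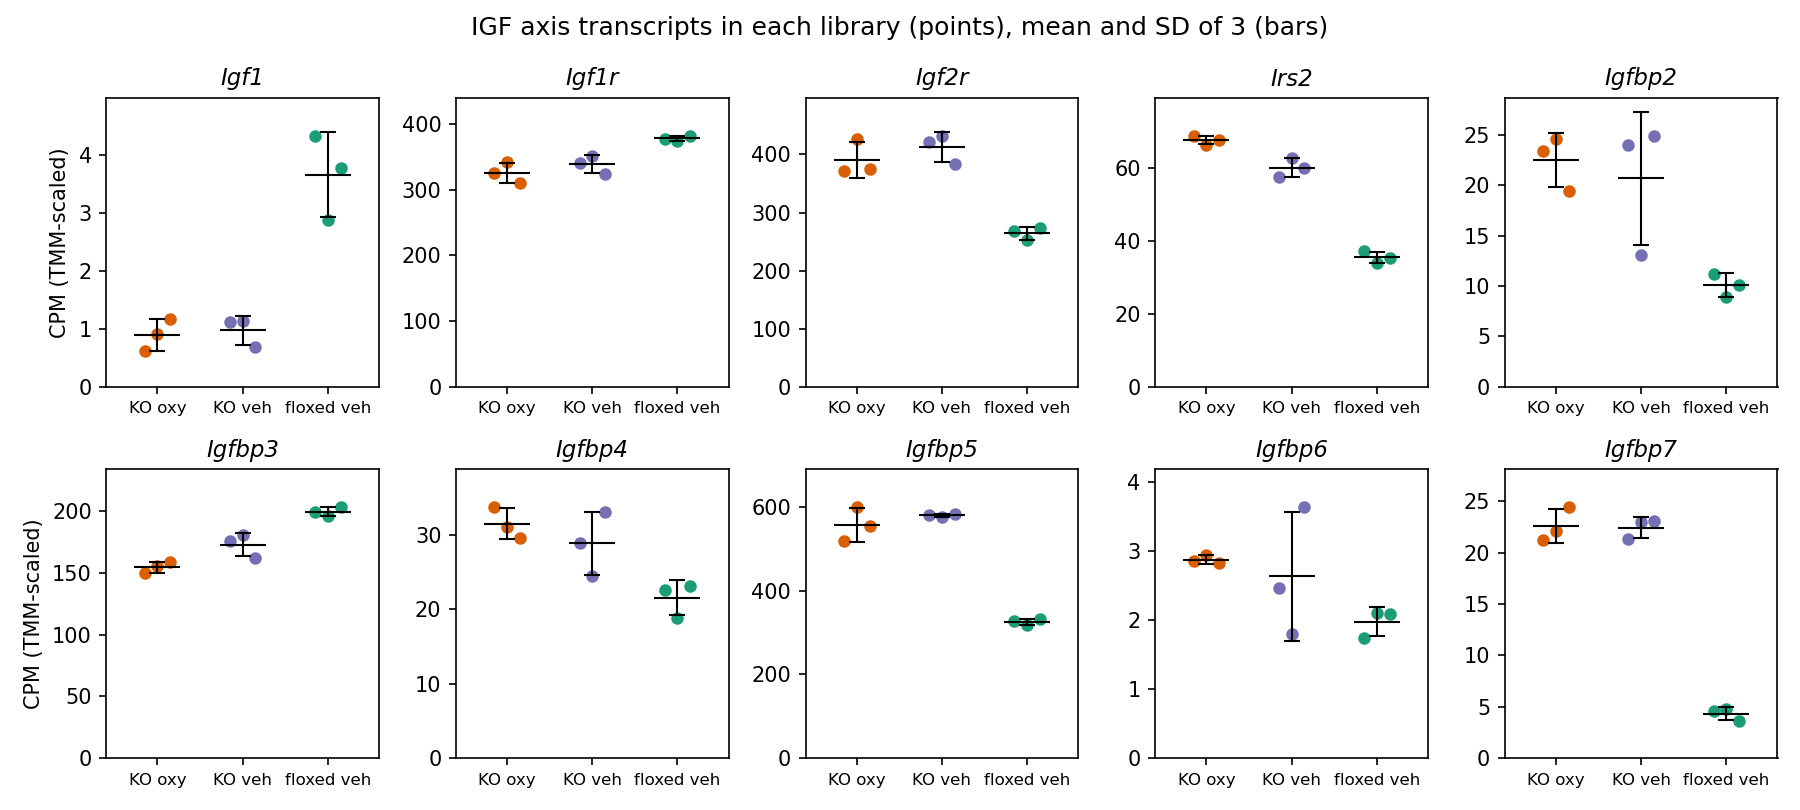
TMM-scaled CPM (y axis, from 0) of the 10 genes in each library (points), by group: knockout oxybutynin, knockout vehicle and floxed vehicle. Bars give the mean and SD of 3 libraries. Igfbp7 lay between 21.3 and 24.4 CPM in the 6 knockout libraries and between 3.60 and 4.77 CPM in floxed vehicle. Igf1 showed the opposite order, between 0.612 and 1.17 CPM in the knockout libraries and between 2.88 and 4.34 CPM in floxed vehicle.

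Igf1 (ENSMUSG00000020053; GRCm38 chromosome 10, 87858265 to 87937042, plus strand) encodes the ligand that activates IGF1R. It was scarce throughout, with 1.12, 1.13 and 0.688 CPM in knockout vehicle (24, 27 and 17 counts) and 4.34, 2.88 and 3.78 CPM in floxed vehicle (85, 67 and 85 counts). The groups were far apart, with every knockout library below every floxed one. The log2 fold change was -1.90 ± 0.27 (adjusted p = 8.49e-06). Igf1 has the lowest transcript GC content of the 10 genes, 38%, which is the 2.12th percentile of tested protein-coding genes. After a trend on GC content and length was removed from each library, its log2 fold change was -0.69 and was still called.

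Igf1r (ENSMUSG00000005533; chromosome 7, 67952827 to 68233668, plus strand), the signalling receptor, was among the more abundant of the 10. It gave 340.3, 352 and 324 CPM in knockout vehicle and 377, 374 and 382 CPM in floxed vehicle. Every knockout library lay below every floxed one, but the difference was small, at a log2 fold change of -0.16 ± 0.07, and did not pass the test (adjusted p = 0.0707). Its 95% interval ran from -0.31 to -0.0024. It passed without knockout vehicle replicate 2 (log2 fold change -0.18, adjusted p = 0.0285), and the adjusted p ran from 0.0161 to 0.392 over all alternatives. With the GC and length trend removed its log2 fold change was 0.06, with the sign turned and no call.

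Igf2r (ENSMUSG00000023830; chromosome 17, 12682406 to 12769664, minus strand) encodes the cation-independent mannose-6-phosphate receptor, which carries lysosomal enzymes and takes up IGF2 for degradation. Knockout vehicle held 422, 432 and 384 CPM, against 267, 252 and 274 CPM in floxed vehicle. The groups did not overlap, and Igf2r was 1.56-fold higher (log2 fold change 0.64 ± 0.08, adjusted p = 2.75e-06). Its transcript has a mid-range GC content of 51.2%, and its log2 fold change was 0.55 after the GC and length trend was removed.

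Irs2 (ENSMUSG00000038894; chromosome 8, 10984681 to 11008458, minus strand) encodes a docking protein that links the IGF1 and insulin receptors to PI3K. It measured 57.5, 62.5 and 60.0 CPM in knockout vehicle and 37.0, 34.0 and 35.2 CPM in floxed vehicle. The rise was 1.70-fold (log2 fold change 0.76 ± 0.08, adjusted p = 2.92e-07) with a wide gap between the groups. Removal of the GC and length trend brought the log2 fold change to 0.36, still called. On the opposite strand, 9530052E02Rik overlaps 162 bases of its exons (2.56%), and with the strand setting of the counting not given, reads there cannot be told apart.

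Among the binding proteins, Igfbp7 (ENSMUSG00000036256; chromosome 5, 77349240 to 77408041, minus strand), a secreted matrix protein with low affinity for IGFs, changed most. Its values were 21.3, 23.0 and 23.0 CPM in knockout vehicle and 4.55, 4.77 and 3.60 CPM in floxed vehicle. The knockout libraries were tight and lay far above the floxed ones (log2 fold change 2.38 ± 0.12, adjusted p = 6.60e-11). The rise was 1.97 on the log2 scale after the GC and length trend was removed, at a transcript GC content of 58.8% (the 92.6th percentile). Its exons overlap those of Polr2b on the opposite strand over 85 bases, 7.03% of its exon length.

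Igfbp5 (ENSMUSG00000026185; chromosome 1, 72857932 to 72874884, minus strand), the binding protein most tied to muscle differentiation, was already abundant. It reached 581, 576 and 582 CPM in knockout vehicle, against 327, 318 and 332 CPM in floxed vehicle. This was a 1.78-fold rise with little spread in either group (log2 fold change 0.83 ± 0.08, adjusted p = 5.09e-08), and 0.68 without the GC and length trend. Its neighbour Igfbp2 (ENSMUSG00000039323; chromosome 1, 72824503 to 72852474, plus strand) is transcribed towards it, the 3′ ends lying 5457 bases apart. Igfbp2, a carrier of both IGFs, gave 24.0, 13.1 and 24.9 CPM in knockout vehicle and 11.2, 8.89 and 10.1 CPM in floxed vehicle. Knockout vehicle replicate 2 was close to the floxed libraries and the other 2 were more than 2-fold above them. The log2 fold change was 1.04 ± 0.19 (adjusted p = 0.000121), and 0.56 without the GC and length trend (transcript GC content 62.1%).

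Igfbp3 (ENSMUSG00000020427; chromosome 11, 7206086 to 7213923, minus strand), the chief IGF carrier of the circulation, fell where Igfbp2, Igfbp4, Igfbp5 and Igfbp7 rose. It measured 176, 181 and 162 CPM in knockout vehicle and 199.5, 196 and 204 CPM in floxed vehicle. The groups did not overlap, and the log2 fold change was -0.21 ± 0.07 (adjusted p = 0.0211). Leaving out any 1 floxed library, or knockout vehicle replicate 1, ended this call, with adjusted p-values of 0.0502 to 0.0819, and over all alternatives the adjusted p ran from 4.98e-06 to 0.189. Removal of the GC and length trend made the fall larger (log2 fold change -0.53).

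Igfbp4 (ENSMUSG00000017493; chromosome 11, 99041244 to 99054392, plus strand), an inhibitor of IGF action until it is cleaved, gave 29.0, 24.6 and 33.1 CPM in knockout vehicle and 22.6, 18.9 and 23.2 CPM in floxed vehicle. The lowest knockout value, again in replicate 2, was just above the highest floxed one, and the log2 fold change was 0.42 ± 0.12 (adjusted p = 0.00457). Removal of the GC and length trend turned it to -0.01, and the call was lost. Igfbp6 (ENSMUSG00000023046; chromosome 15, 102144362 to 102149511, plus strand), which prefers IGF2, was the scarcest binding protein at 2.47, 1.80 and 3.64 CPM in knockout vehicle and 1.74, 2.10 and 2.09 CPM in floxed vehicle. These groups overlapped through replicate 2 (log2 fold change 0.41 ± 0.24, adjusted p = 0.141). Without that library the value was 0.64 and passed the test (adjusted p = 0.0143, with 0.0143 to 0.937 over all alternatives), and with the GC and length trend removed it was -0.02 and not called.

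Features of the libraries moved with these differences. Across 12976 protein-coding genes, the log2 fold change of knockout vehicle over floxed vehicle rose with transcript GC content (Spearman's rho 0.542, across genes, which are not independent replicates). Of the 5 genes above 55% GC (Igfbp4, Irs2, Igfbp7, Igfbp6 and Igfbp2), all had positive log2 fold changes. Below 55% GC, Igfbp5 and Igf2r had positive values and Igf1, Igf1r and Igfbp3 negative ones. The share of all tested genes above 55% GC with positive values was not counted. With the GC and length trend removed, 7 of the 10 genes were called, 5 higher and 2 lower, where 4447 of all 15720 tested genes were called higher and 4837 lower. The small nuclear RNA Rn7sk took 3.36% to 3.98% of counts in knockout oxybutynin, 2.36% to 3.59% in knockout vehicle and 1.93% to 2.10% in floxed vehicle. Knockout vehicle replicate 2, with the least Rn7sk of its group, was the library of its group nearest to the floxed mean for 7 of the 10 genes. This closeness was not particular to the 10 genes. Over all tested genes its Pearson r of log2 CPM with the floxed libraries was 0.951 to 0.953, against 0.933 to 0.941 for replicates 1 and 3. The GC and length trend was fitted to these same libraries, so its removal also takes out any true difference that follows GC content or length. The part of the RNA composition in the differences was not tested.

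**Figure D2:**
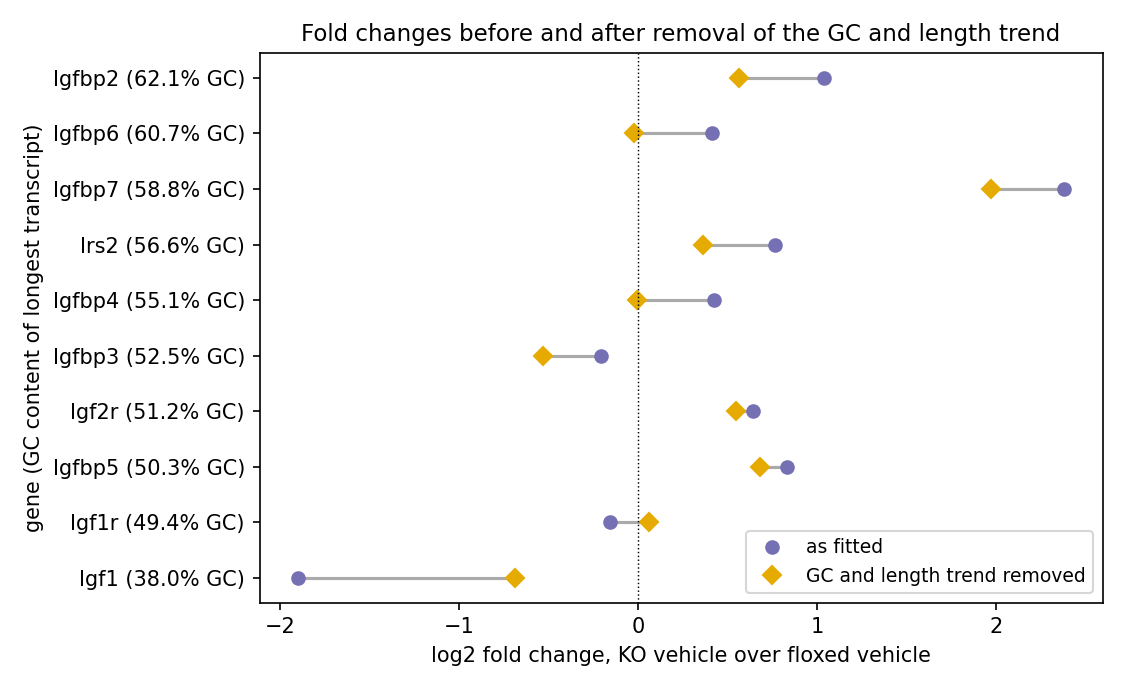
Log2 fold change of knockout vehicle over floxed vehicle (x axis) of the 10 genes, ordered by the GC content of the longest transcript (y axis), as fitted (circles) and after removal of a GC and length trend from each library (diamonds). Igf1 moved from -1.90 to -0.69 and Igfbp4 to -0.01, while Igfbp7 (2.38 and 1.97), Igfbp5 (0.83 and 0.68) and Igf2r (0.64 and 0.55) stayed positive and called.

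Markers of other cell types were counted beside these results. The 6 fibroblast markers summed to 60.7 to 79.4 CPM in knockout oxybutynin, 55.9 to 73.4 CPM in knockout vehicle and 25.0 to 28.1 CPM in floxed vehicle. Of the 4 fibroblast markers tested, 3 were called higher in knockout vehicle, and Col1a1, at 54.4 CPM in knockout vehicle and 21.2 CPM in floxed vehicle, made up most of the sum, while Lum was at 0 in every library. The 5 smooth muscle and pericyte markers summed to 1049 to 1188, 859 to 1135 and 500.4 to 547 CPM in the same order of groups, nearly all of it Acta2, and of the 4 tested 2 were called higher and 1 lower in knockout vehicle. The 5 leukocyte markers summed to 12.7 to 13.7, 11.3 to 13.0 and 5.36 to 6.18 CPM, led by Cd68, and 2 of the 3 tested were called higher. The endothelial sums were 2.69 to 3.34, 2.68 to 3.45 and 2.22 to 3.39 CPM, and the 3 tested markers were not called. The adipocyte sums were 3.59 to 4.24, 2.79 to 4.05 and 1.74 to 2.28 CPM, with 2 of 2 called higher, and the Schwann cell sums were 1.57 to 2.41, 1.68 to 2.34 and 2.35 to 2.93 CPM, with the 1 tested marker not called. The 8 differentiation markers summed to 1946 to 2125, 1864 to 2575 and 2087 to 2397 CPM. In knockout vehicle 2 of the 8 were called higher (Acta1 and Ckm) and 5 lower (Myog, Mymk, Mymx, Myh3 and Tnnt3). These marker counts stand beside 29.9% of all tested genes called higher and 33.4% lower in knockout vehicle against floxed vehicle. The part of these markers in the IGF results was not tested.

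Levels of different genes were compared as CPM per kb of annotated exon. In knockout vehicle the order was Igfbp5 (96.5 ± 0.506), Igfbp3 (55.3 ± 3.07), Igf2r (44.4 ± 2.72), Igf1r (20.2 ± 0.837), Igfbp7 (18.6 ± 0.820), Igfbp2 (11.2 ± 3.57), Irs2 (9.49 ± 0.397), Igfbp4 (6.54 ± 0.969), Igfbp6 (2.37 ± 0.840) and Igf1 (0.0988 ± 0.0254). In floxed vehicle it was Igfbp3 (63.9 ± 1.18), Igfbp5 (54.3 ± 1.19), Igf2r (28.4 ± 1.19), Igf1r (22.5 ± 0.233), Irs2 (5.60 ± 0.245), Igfbp2 (5.46 ± 0.637), Igfbp4 (4.89 ± 0.530), Igfbp7 (3.56 ± 0.512), Igfbp6 (1.78 ± 0.187) and Igf1 (0.370 ± 0.0746). Igfbp7 thus ranked next below Igf1r in knockout vehicle and next below Igfbp4 in floxed vehicle. The ranges of neighbours overlapped between Igfbp2 and Irs2 in knockout vehicle, and in floxed vehicle between Irs2 and Igfbp2 and between Igfbp2 and Igfbp4. The other neighbouring pairs did not overlap in those groups. In knockout oxybutynin the order was that of knockout vehicle, with Igfbp5 at 92.9 ± 6.78 and Igf1 at 0.0904 ± 0.0281, and there the ranges of Igf1r (19.4 ± 0.921) and Igfbp7 (18.7 ± 1.37) overlapped, as did those of Igfbp2 and Irs2.

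The 6 binding protein genes together gave 183 ± 8.10 CPM per kb in knockout oxybutynin, 191 ± 3.08 in knockout vehicle and 134 ± 2.82 in floxed vehicle. Igfbp5 made up 50.7% ± 1.47 of that sum in knockout oxybutynin, 50.7% ± 0.574 in knockout vehicle and 40.5% ± 0.117 in floxed vehicle. Igfbp3 made up 27.0% ± 0.881, 29.0% ± 1.95 and 47.7% ± 0.382 in the same order, and was the largest share only in the 3 floxed libraries. The share of Igfbp7 was 10.2% ± 0.751 in knockout oxybutynin, 9.74% ± 0.529 in knockout vehicle and 2.67% ± 0.428 in floxed vehicle. Igfbp2 took 6.66% ± 0.801, 5.86% ± 1.80 and 4.08% ± 0.417, and Igfbp4 and Igfbp6 each kept within 1 percentage point across the 3 groups. These shares are a description and were not tested.

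**Figure D3:**
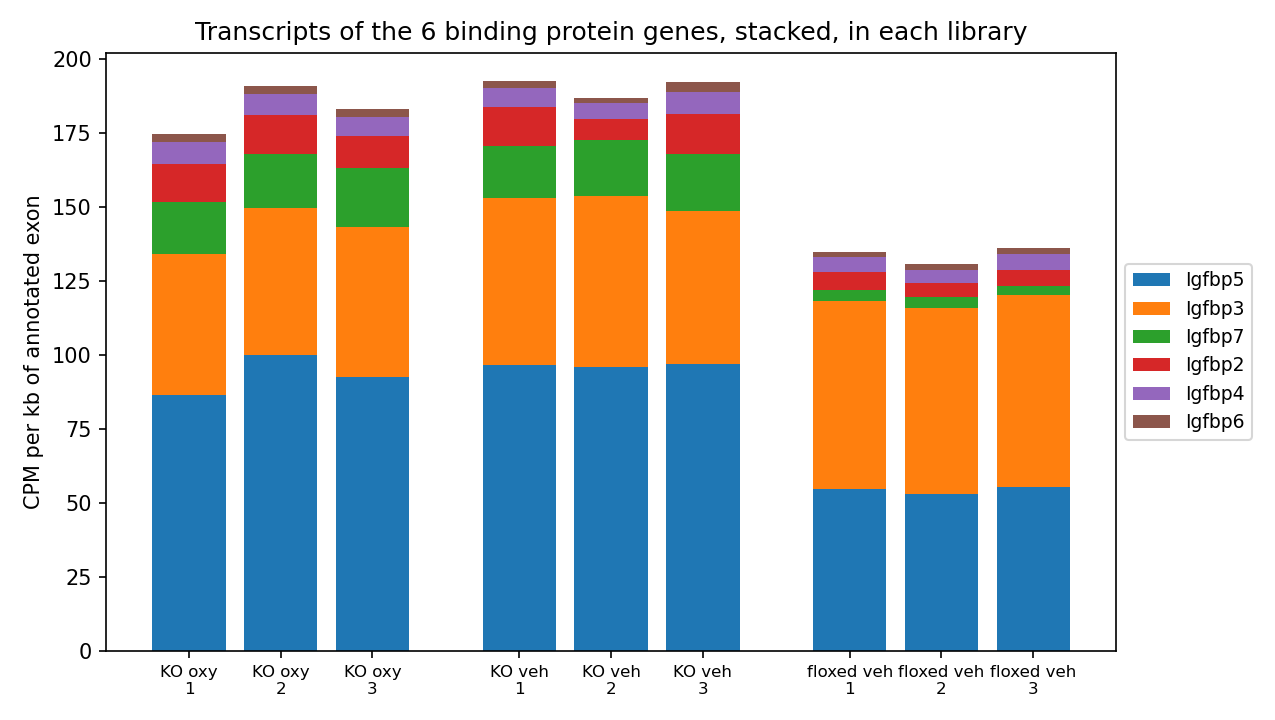
Transcript levels of the 6 binding protein genes in CPM per kb of annotated exon (y axis, from 0), stacked for each of the 9 libraries, with knockout oxybutynin, knockout vehicle and floxed vehicle from left to right. Igfbp5 is the largest part of the knockout bars and Igfbp3 of the floxed bars, and the knockout totals lie between 175 and 192 CPM per kb against 131 to 136 in floxed vehicle.

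The second comparison, knockout oxybutynin with knockout vehicle, addressed the response of knockout cells to the drug. None of the 10 genes was called by edgeR, DESeq2 or limma-voom, and 2 of them, Igfbp3 and Irs2, had an unadjusted edgeR p under 0.05, as did 4084 of the 15720 tested genes. Across all tested genes, 0.00636% were called higher and 0.00636% lower, which is 1 gene each. The groups did not overlap for 2 of the 10 genes, against 22.1% of all tested genes. The median log2 fold change was -0.02 over the 10 genes and -0.00 over all.

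Igfbp3 gave 149.7, 156 and 159 CPM in knockout oxybutynin and 176, 181 and 162 CPM in knockout vehicle, with every treated library below every vehicle one. Its log2 fold change was -0.16 ± 0.07 (unadjusted p = 0.0420, adjusted p = 0.177). Irs2 gave 68.8, 66.3 and 67.7 CPM in knockout oxybutynin and 57.5, 62.5 and 60.0 CPM in knockout vehicle, again without overlap. Its log2 fold change was 0.17 ± 0.08 (unadjusted p = 0.0445, adjusted p = 0.181). The corresponding log2 fold changes of knockout vehicle over floxed vehicle, which share the knockout vehicle libraries, were -0.21 for Igfbp3 and 0.76 for Irs2.

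The other 8 genes overlapped between the drug and vehicle groups. Igfbp7 held 21.3, 22.1 and 24.4 CPM in knockout oxybutynin, beside 21.3, 23.0 and 23.0 CPM in knockout vehicle, a log2 fold change of 0.01 with a 95% interval from -0.21 to 0.23. Igfbp5 held 519, 600.2 and 555 CPM in knockout oxybutynin, beside 581, 576 and 582 CPM in knockout vehicle, a log2 fold change of -0.06 with an interval from -0.22 to 0.10. For both genes, changes as large as those between knockout vehicle and floxed vehicle lay outside the intervals. Igf1r had an interval from -0.21 to 0.10 and Igf2r from -0.25 to 0.09. Those of Igfbp4 (-0.12 to 0.37), Igfbp2 (-0.25 to 0.49), Igfbp6 (-0.35 to 0.60) and Igf1 (-0.80 to 0.54) were wider. Igf1 gave 0.612, 0.905 and 1.17 CPM in knockout oxybutynin (15, 23 and 26 counts) and 1.12, 1.13 and 0.688 CPM in knockout vehicle (24, 27 and 17 counts), and a modest change was not detectable at this depth.

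Knockout vehicle replicate 3, the library close to the oxybutynin group, weighed on this comparison. Without it, 4188 genes were called, 26.02% of those tested, and of the 10 genes Igfbp3 alone was called (log2 fold change -0.21, adjusted p = 0.0252, with 0.0252 to 0.425 over all alternatives). Irs2 then had a log2 fold change of 0.17 and was not called. DESeq2 called 1134 genes with all libraries, and limma-voom 3. The log2 fold change also rose with transcript GC content here (Spearman's rho 0.690 across 12976 genes).

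The last comparison, knockout oxybutynin with floxed vehicle, shares libraries with both others. Of the 10 genes 6 were called higher, where 35.1% of all tested genes were, and 3 lower, where 36.9% were, and Igfbp6 was not called. All 10 were without overlap, against 78.9% of all tested genes. Igfbp7 was 5.24-fold higher (log2 fold change 2.39 ± 0.12, adjusted p = 3.49e-11) and Igf1 4.09-fold lower (-2.03 ± 0.27, adjusted p = 3.15e-06). The log2 fold changes were 1.16 ± 0.19 for Igfbp2, 0.93 ± 0.08 for Irs2, 0.78 ± 0.08 for Igfbp5, 0.56 ± 0.08 for Igf2r and 0.55 ± 0.12 for Igfbp4, with adjusted p-values from 1.54e-08 to 0.000442. Igfbp3 fell by 0.37 on the log2 scale (SE 0.07, adjusted p = 0.00025) and Igf1r by 0.21 (SE 0.07, adjusted p = 0.0156).

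Igf1r measured 325, 341 and 311 CPM in knockout oxybutynin, against 377, 374 and 382 CPM in floxed vehicle, so this small fall was visible in each treated library. Its call was lost when floxed replicate 1 or 3 or oxybutynin replicate 1 or 3 was left out (adjusted p = 0.0502 to 0.0946, with 0.00324 to 0.158 over all alternatives). Igfbp6 measured 2.86, 2.95 and 2.83 CPM in knockout oxybutynin, against 1.74, 2.10 and 2.09 CPM in floxed vehicle. The groups were apart, and the log2 fold change of 0.54 ± 0.24 did not pass the test (adjusted p = 0.0505). Over all alternatives the adjusted p of Igfbp6 ran from 0.00895 to 0.568, so some of them called it. With the GC and length trend removed it was -0.14, also not called. Removal of the GC and length trend left 6 genes called, 5 higher and 1 lower, where 4683 of all 15720 tested genes were called higher and 5060 lower. In that fit Igf1 stood at -0.58, Igfbp4 at -0.01 and Igf1r at 0.09, and none of these 3 was called.

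**Figure D4:**
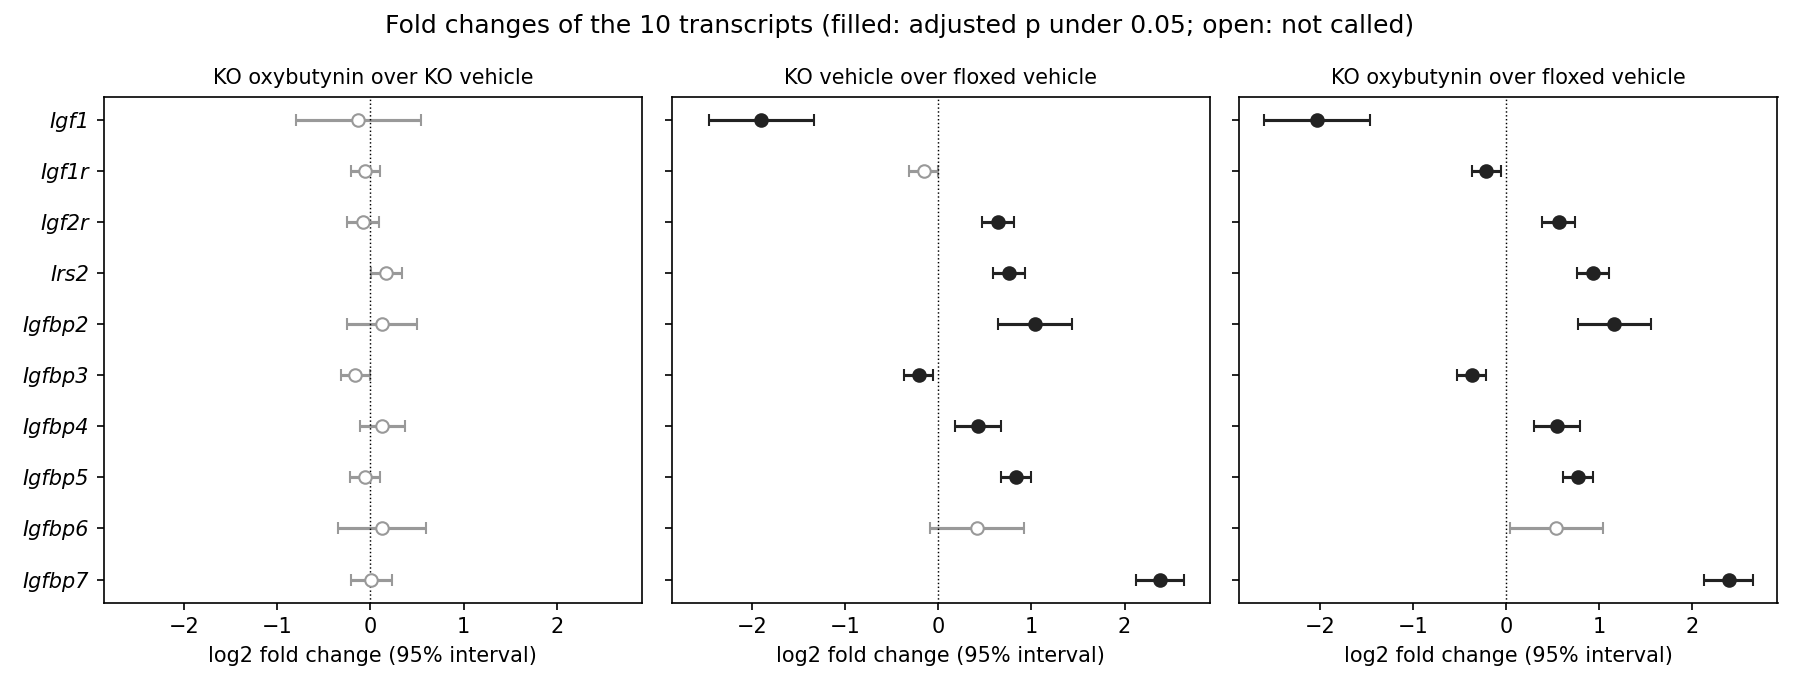
Log2 fold changes with 95% intervals (x axis) of the 10 genes (y axis), with 1 panel per comparison: knockout oxybutynin over knockout vehicle, knockout vehicle over floxed vehicle, and knockout oxybutynin over floxed vehicle. Filled points had an adjusted p under 0.05. None is filled in the drug panel, while 8 and 9 are filled against floxed vehicle.

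The other genes of the system were taken from lists of ligands, receptors, proteases and signalling components. These lists too were chosen with earlier results of these data known. Of 11 further ligands, receptors, adaptors and related genes, 3 passed the filter on low counts, Igf2, Insr and Irs1. Igfbp1, whose gene lies next to Igfbp3 on chromosome 11, had 0 counts in all 9 libraries. Igf2, the second ligand, gave 122, 66.1 and 109 CPM in knockout vehicle and 60.9, 50.9 and 61.8 CPM in floxed vehicle, with replicate 2 close to the floxed libraries. It rose by a log2 fold change of 0.78 ± 0.16 (adjusted p = 0.000334), or 0.35 without the GC and length trend. The ligands Igf2 and Igf1 thus stood in opposite order between the groups, and in knockout vehicle Igf2 reached 17.3 ± 5.12 CPM per kb, against 0.0988 ± 0.0254 for Igf1.

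Irs1, the other main docking protein, measured 497, 462 and 373 CPM in knockout vehicle and 664, 659.6 and 654 CPM in floxed vehicle. It fell (log2 fold change -0.57 ± 0.09, adjusted p = 5.18e-05) while Irs2 rose, and did so with the GC and length trend removed as well (-0.62). In CPM per kb Irs1 remained the more abundant of the pair in all groups, at 48.6 in knockout vehicle against 9.49 for Irs2. Insr, the insulin receptor, averaged 76.0 CPM in knockout vehicle and 86.1 CPM in floxed vehicle and was not called (log2 fold change -0.18, adjusted p = 0.0542). Its call depended on the setting: Insr was called lower by limma-voom (adjusted p = 0.0494), with a mean of at least 1 CPM (0.0297), among protein-coding genes only (0.0129) and without knockout vehicle replicate 2 (0.00983), and higher with the GC and length trend removed (log2 fold change 0.19, adjusted p = 0.015).

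Proteases and protease inhibitors that act on binding proteins formed the next list. Of 8 listed, 7 were tested, and 4 rose and 1 fell in knockout vehicle, where 29.9% of all tested genes were called higher and 33.4% lower. Pappa, the metalloprotease that cleaves IGFBP4 and IGFBP5, stood at 18.5, 26.8 and 20.8 CPM in knockout vehicle and 2.25, 3.22 and 2.31 CPM in floxed vehicle (log2 fold change 3.08 ± 0.17, adjusted p = 1.28e-10). Htra1, a secreted serine protease, stood at 33.3, 38.4 and 41.5 CPM in knockout vehicle and 6.39, 6.23 and 7.78 CPM in floxed vehicle (2.47 ± 0.12, adjusted p = 3.30e-11). Both were several-fold above the floxed level in every knockout library. Stc2, an inhibitor of PAPP-A, rose as well (36.1 CPM in knockout vehicle and 18.4 CPM in floxed vehicle), as did the secreted metalloprotease gene Adamts1 (36.0 and 17.6 CPM in the same order). Adam12, a membrane metalloprotease, fell (1.52 and 4.33 CPM). In knockout oxybutynin against floxed vehicle 4 were called higher and 1 lower, where 35.1% and 36.9% of all tested genes were, with a log2 fold change of 2.78 ± 0.17 for Pappa and 2.71 ± 0.12 for Htra1.

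The Igf2 mRNA-binding protein genes split. Igf2bp1 rose to 4.41 CPM in knockout vehicle, against 2.10 CPM in floxed vehicle (log2 fold change 1.06 ± 0.17). Igf2bp2 fell to 109 CPM in knockout vehicle, against 148 CPM in floxed vehicle (-0.44 ± 0.08), and Igf2bp3 fell to 18.9 CPM, against 22.9 CPM (-0.28 ± 0.10, adjusted p = 0.0284). The Igf2bp3 value turned to 0.05 and lost its call when the GC and length trend was removed. That call was also lost without floxed replicate 1 or 2 or knockout vehicle replicate 1 or 3 (adjusted p = 0.0735 to 0.125), and with library totals only, no filter on low counts or the 2 groups alone (0.0856 to 0.137).

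Downstream of the receptor, 8 of the 24 PI3K-AKT-mTOR genes were called higher in knockout vehicle and 9 lower. The lowest adjusted p-values belonged to genes that fell: the kinase gene Rps6kb1 (16.4 CPM in knockout vehicle and 48.6 CPM in floxed vehicle), the regulatory subunit gene Pik3r3 (13.1 and 38.8 CPM in the same order), the catalytic subunit gene Pik3ca (57.0 and 119.96 CPM) and Rictor, of mTOR complex 2 (59.3 and 139.9 CPM). Of 18 Ras-MAPK genes 6 were called higher and 6 lower. Mapk3, which encodes ERK1, was 2.16-fold higher, and Braf and Rps6ka3 were 1.97-fold and 2.16-fold lower. Of 20 inhibitors of the pathway 7 were called higher and 5 lower. Trib3, a pseudokinase gene, was 9.60-fold higher (146 CPM in knockout vehicle and 15.2 CPM in floxed vehicle) and Grb10, an adaptor that restrains IGF1R and the insulin receptor, 3.01-fold higher (172 and 57.1 CPM). Deptor, an inhibitor of mTOR, was 1.87-fold lower. These counts stand beside 29.9% of all tested genes called higher and 33.4% lower.

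**Figure D5:**
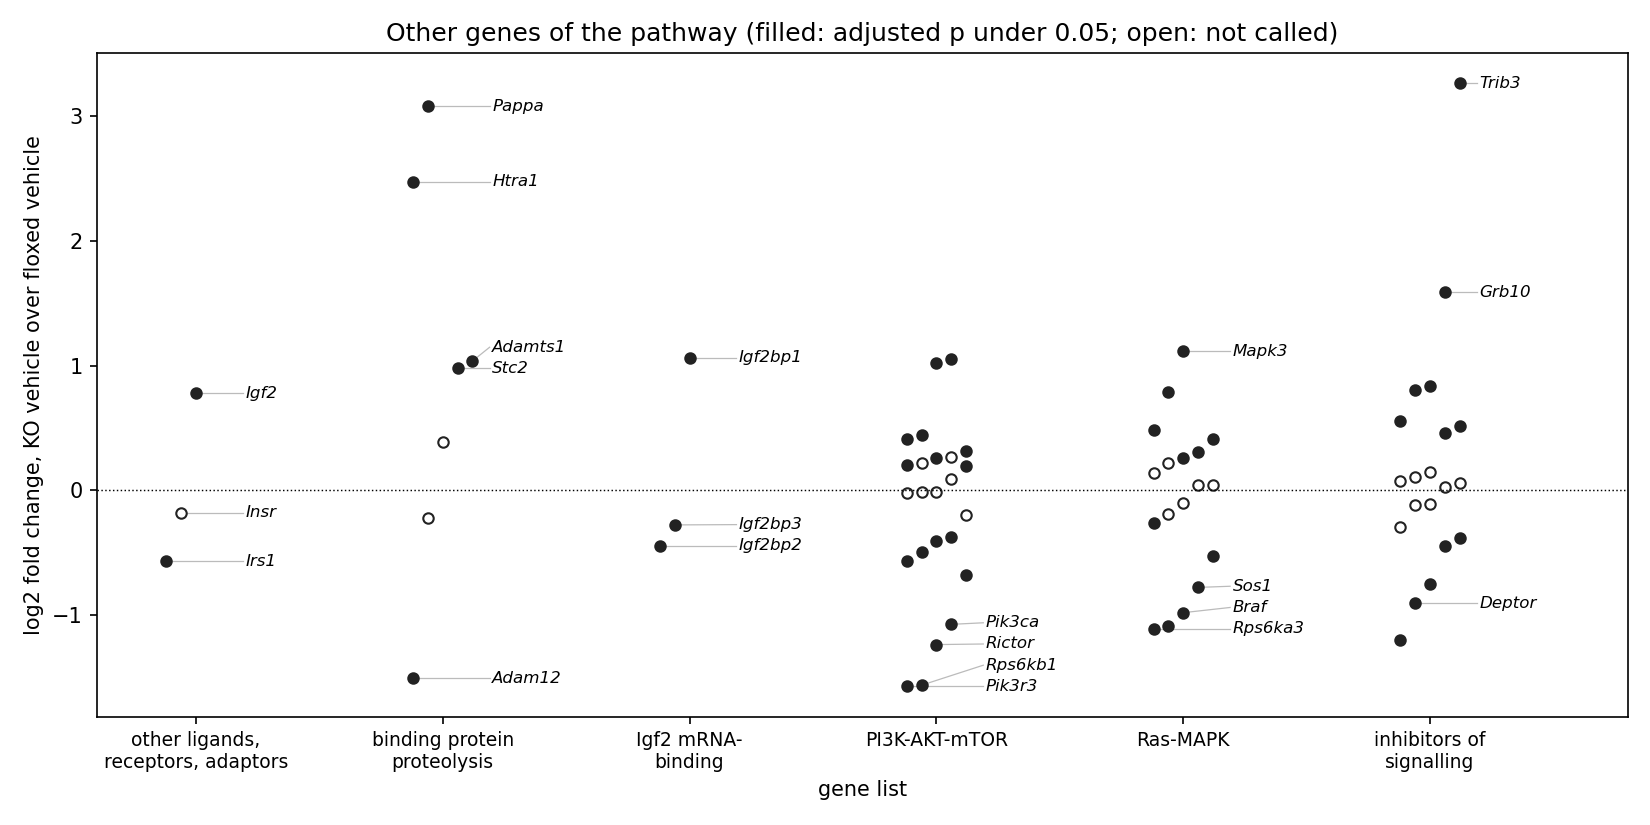
Log2 fold change of knockout vehicle over floxed vehicle (y axis) of the tested genes of 6 lists (x axis). Filled points had an adjusted p under 0.05, and genes named in the text are labelled. Pappa, Htra1 and Trib3 lie highest, above 2, and the signalling lists hold called genes on both sides of 0.

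Removal of the GC and length trend left 4 PI3K-AKT-mTOR genes higher and 10 lower, 8 Ras-MAPK genes higher and 4 lower, and 7 inhibitors higher and 9 lower. In that fit 4447 of all 15720 tested genes were called higher and 4837 lower. Rps6kb1 then stood at -0.49 on the log2 scale, Pik3ca at -0.19 and Rictor at -0.29, while Braf (-0.12) lost its call. Pik3r3 (-1.16), Trib3 (2.79), Grb10 (1.67), Pappa (3.45) and Htra1 (2.02) kept most of their size.

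In knockout oxybutynin against floxed vehicle, 9 PI3K-AKT-mTOR genes were called higher and 10 lower, 9 Ras-MAPK genes higher and 7 lower, and 8 inhibitors higher and 5 lower, where 35.1% of all tested genes were called higher and 36.9% lower. Sos1, an exchange factor gene for Ras, was among the named genes there, 1.99-fold lower. Insr fell (log2 fold change -0.26 ± 0.08, adjusted p = 0.0077), and both Insr (0.28) and Sos1 (0.21) turned positive without the GC and length trend. No gene of these lists was called by edgeR between knockout oxybutynin and knockout vehicle with all 9 libraries, though 35 of the 75 tested had an unadjusted p under 0.05, and DESeq2 called 10 and limma-voom 0. Of all 15720 tested genes, 4084 had an unadjusted p under 0.05, and DESeq2 called 1134. Without knockout vehicle replicate 3, 12 PI3K-AKT-mTOR genes, 10 Ras-MAPK genes and 10 inhibitors were called, and Irs1 fell by 0.41 on the log2 scale, where 26.02% of all tested genes were called.

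Genes with the pattern most like that of Igfbp7, the called gene with the largest log2 fold change, were Fbln5 (Pearson r of log2 CPM 0.9963), Ckmt2, Gpr146 and Tspan7 (0.9961 each) and Fbxo40 (0.996), over 9 libraries and among 8832 protein-coding genes averaging 10 CPM or more. Libraries of a group share their condition, and 10.9% of these genes had an r of at least 0.95 with Igfbp7. No gene was called between knockout oxybutynin and knockout vehicle among the 10, so no such search was made there.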

How the data were processed

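Per the labels, RNA was Trizol-extracted and directional NEBNext libraries were made. The authors deposited raw whole-number counts for each gene. STAR 2.7.0e, DESeq2 1.26.0, Trim Galore 0.6.0, FastQC and cutadapt, with the builds GRCm38 and mm10, are named in the submitters' processing notes. Not given in the sources used here are the counting method, its strand setting and the annotation.

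Counts were tested with edgeR 4.0.16 in R 4.3.3 (limma 3.58.1): filterByExpr, TMM scaling, and 1 quasi-likelihood fit of all 9 libraries in 3 groups without covariates, with Benjamini-Hochberg adjustment over 15720 genes. DESeq2 1.42.0, limma-voom, other scalings and filters, leaving out each library, and removal of a spline trend on GC content and exon length (5 degrees of freedom) were alternatives. The fit was also run on simulated counts, with 100 genes changed 1.5-fold and 100 changed 2-fold in knockout vehicle, up and down equally. It recovered 60.8% of the 1.5-fold and 77% of the 2-fold changes, with 8 false calls. The simulated counts held no GC trend and far fewer changed genes than were called here. The error rates in the real libraries were therefore not measured. Coordinates, exon lengths and GC content came from GENCODE M21 (GRCm38), and promoters from RefSeq (GRCm38.p6). Intervals are 95% confidence intervals of the log2 fold change, and the SE was derived from the F statistic of the quasi-likelihood test. The members and lists were chosen with earlier results of these data known. Named were the 10 members, Uqcrfs1, Igf2, Insr, Irs1, Igfbp1, up to 4 called genes per list and comparison with the lowest adjusted p and a mean of at least 1 CPM, and the 5 genes most like Igfbp7; some genes this rule takes in are not reported here. Myoblast markers are named in full beside their sum, and markers of the other lists in part or not at all.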

Additional observations from a re-analysis of the deposited data

How the results depend on the processing

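Of the 10 genes, between 7 and 10 were called in knockout vehicle against floxed vehicle under every alternative run, and between 6 and 10 in knockout oxybutynin against floxed vehicle. Leaving out each library in turn gave 7 to 10 and 8 to 10. Among all tested genes, the share called over the same settings ran from 34.8% to 68.2% in knockout vehicle against floxed vehicle. It ran from 39.4% to 78.6% in knockout oxybutynin against floxed vehicle. Between knockout oxybutynin and knockout vehicle the count was 0 to 1 over the libraries left out, the 1 being Igfbp3 without knockout vehicle replicate 3, and 0 under the other alternatives. Directions of called members reversed only with the GC and length trend removed: Igfbp4 (-0.0056 in knockout vehicle and -0.011 in knockout oxybutynin, each against floxed vehicle) and Igf1r in knockout oxybutynin against floxed vehicle (0.089). Of the other named genes, Insr (0.19 and 0.28) and Sos1 (0.18 and 0.21) turned positive in both comparisons with floxed vehicle and Igf2bp3 (0.047) in knockout vehicle. The Igfbp3 call in knockout vehicle was also lost with library totals only (adjusted p = 0.101), with no filter on low counts (0.189) and in a fit of the 2 groups alone (0.101). Igf1r was called there among protein-coding genes only (0.0161) and with a mean of at least 1 CPM (0.0388). The count of all genes called between knockout oxybutynin and knockout vehicle depended most on the setting: 2 as fitted, 1134 with DESeq2 (173 higher and 961 lower), 1099 with no filter (277 higher and 822 lower), 158 with library totals only (10 higher and 148 lower), 7 with RLE scaling, 63 without knockout vehicle replicate 2 and 4188 without replicate 3. It was 0 without knockout vehicle replicate 1, without each oxybutynin library in turn, and with the GC and length trend removed. The uncalled Igf1r (0.061) and Igfbp6 (-0.021) of knockout vehicle and Igfbp6 (-0.14) of knockout oxybutynin, each against floxed vehicle, also changed sign with the GC and length trend removed. Igf1 had 15 to 85 counts a library and Igfbp6 34 to 90, the fewest of the 10 genes. No paired analysis was possible because the labels give no replicate numbers that groups share.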
